A study of Mus musculus with 12 samples.

Results

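Cluster 1-P of the newborn mouse prefrontal cortex, named layer II-IV neurons in the deposited cell table, held 5646 of 36263 cells. The cells were taken by that name alone, without using any gene value. The study had given cell types mainly by mapping the cells onto published reference data. The Myt1l (+/−) library (HET) gave 1698 of its 12072 cells to 1-P, the Myt1l (−/−) library (HOM) 2063 of 13688, and the Myt1l (+/+) library (WT) 1885 of 10503. HET and HOM animals carried, on 1 or both alleles, a deletion of 7 bp made by CRISPR in Myt1l exon 6, which shifts the reading frame at amino acid 11 and ends in a stop codon at amino acid 78, whereas WT animals carried neither. All mice were at postnatal day 0, and the labels give their strain as C57BL/6J, while the study's methods name C57BL/6N for the zygotes and for the mice that the founders were bred with. Cells of 2 animals per genotype were pooled, fixed in methanol and run in 1 lane of a droplet instrument with a 5′ kit, so each genotype was 1 library. The deletion was made in the germline, so every cell type of a mutant carried it.

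Layer II-IV neurons are the upper-layer projection neurons of the cortex, and many of them send axons across the corpus callosum to the other hemisphere. They are born late, migrate past the deep layers under the guidance of reelin, and express the DNA-binding proteins CUX1, CUX2 and the POU factors BRN1 and BRN2. At birth they are still young and form few synapses. MYT1L is a zinc finger transcription factor of neurons that is known to repress non-neuronal genes. The study asked how its partial or full loss alters the cell types of the cortex and their gene expression, and 1-P is set here against the other layer types and across the genotypes.

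With 1 library per genotype there was no replicate check, no test was possible, and all differences between genotypes compare 3 libraries. Levels are given in CPM, meaning the summed values of a gene over the cells of a library per 1000000 of the sum over all genes. The values had been corrected for depth by the authors. Log2 ratios use CPM plus a pseudocount of 1 CPM, and only genes with a summed value of at least 50 across the libraries compared were kept. Past the fold means at least 1.5-fold apart. The HET and HOM comparisons share the WT library. Shares are given with exact 95% intervals (Clopper-Pearson) for counting error alone.

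Several features of the libraries bear on every comparison below. The genotype names are those of the cell table, while a figure legend of the study pairs the same totals of cells with genotypes in another order, so each direction below belongs to the library labelled with that name. Under these names layer I cells numbered 114 in HET, 237 in HOM and 71 in WT (0.944, 1.73 and 0.676% of the library), and migrating SVZ1 cells numbered 561 in HET, 792 in HOM and 979 in WT (4.65, 5.79 and 9.32%). Xist RNA, which is made by cells with 2 X chromosomes, was found in 0 HET, 0 HOM and 449 WT cells of 1-P (23.8% of WT), and Y-linked transcripts were found in 245 HET, 296 HOM and 76 WT cells. The sexes of the pooled mice therefore differed between WT and both mutants. A barcode that also occurs in another library was carried by 167 of the 5646 1-P cells and by 1299 of all 36263 cells. Of the 167, 20 were shared between 1-P cells.

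Molecules per cell in 1-P formed a low and a high mode. The median was 1364.5 molecules in HET, 1953 in HOM and 1047 in WT. Cells with at least 2000 molecules made up 43.6% of HET (41.2 to 46.0%), 49.7% of HOM (47.5 to 51.9%) and 36.5% of WT (34.3 to 38.7%), and these intervals did not overlap. These 2453 deeper cells had a median of 5317 molecules, and the 3193 cells below 2000 had a median of 712. The median mitochondrial share was 4.75% in HET, 3.33% in HOM and 4.96% in WT. The values of cells below 2000 molecules summed to 1009604 in HET, 1102206 in HOM and 1263846 in WT. Those of the deeper cells summed to 982714, 1373026 and 923922, so the shallower cells weighed heavily in levels over all cells. Because the mix of both modes differed between libraries, values of the deeper cells are given beside those of all cells.

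**Figure D1:**
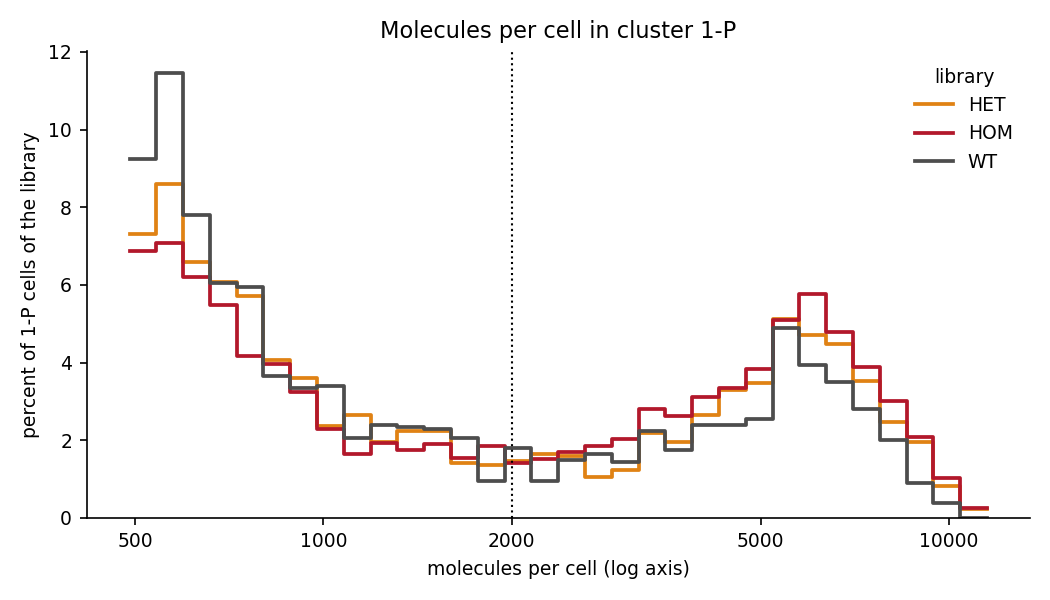
Molecules per cell (log axis) in cluster 1-P, as the percent of the 1-P cells of each library in equal log steps, with a dotted line at 2000 molecules. Each line is 1 library (HET 1698, HOM 2063 and WT 1885 cells). All 3 show a low and a high mode, and the high mode holds 43.6% of HET, 49.7% of HOM and 36.5% of WT cells.

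The 4 genes given as markers of 1-P were checked against the other 3 layer types (layer II-IV cluster 4-P with 2832 cells, layer V-VI cluster 12-P with 1220 and layer V-VI cluster 18-P with 4427). Adamts2, which encodes a protease that trims procollagen, had 61.7 CPM in HET, 73.9 in HOM and 77.7 in WT cells of 1-P. Its levels in the other layer types ranged from 0 to 10.6 CPM over the 3 libraries, so no library overlapped. 9130024F11Rik, a noncoding transcript, had 739 CPM in HET, 733 in HOM and 766 in WT cells of 1-P, against 219 to 296 CPM in 4-P, 19.7 to 44.0 in 12-P and 78.0 to 101 in 18-P. Clstn2, which encodes the postsynaptic membrane protein calsyntenin-2, had 191 CPM in HET, 296 in HOM and 230 in WT cells of 1-P. The highest level of Clstn2 in another layer type was 115 to 116 CPM, in the HOM cells of 4-P and 18-P. Cdh12, which encodes a cadherin of synaptic contacts, did not set 1-P apart. It had 53.7 CPM in HET, 79.6 in HOM and 53.9 in WT cells of 1-P, against 114, 69.9 and 76.9 CPM in 12-P.

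Among the 19 types with at least 100 cells, 1-P had the highest level of Adamts2, 9130024F11Rik and Clstn2. The next highest were SVZ1 (migrating) cells with 56.2 CPM of Adamts2 and 363 CPM of 9130024F11Rik, and layer I cells with 209 CPM of Clstn2. In the deeper 1-P cells (median 5317 molecules), a value above 0 was found for 9130024F11Rik in 83.0%, Clstn2 in 46.1%, Adamts2 in 15.5% and Cdh12 in 12.5%. The 96 deeper microglia (median 4787.5 molecules), which should lack these genes, gave 3.12% for 9130024F11Rik, 2.08% for Clstn2 and 0% for Adamts2 and Cdh12, a 0 that allows up to 3.77% in this number of cells. No marker was found in 7.66% of the deeper 1-P cells, 1 in 40.4%, 2 in 40.4%, 3 in 10.4% and all 4 in 1.22%. The values of a deeper 1-P cell summed to less than its molecules counted, so a cell at 0 for a marker need not lack its RNA. These shares therefore do not give the share of cells that express the marker.

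Positions of the markers are given for mm10 with GENCODE M21. Adamts2 lies at chr11:50602084-50807573 on the plus strand, Clstn2 at chr9:97444395-98033181 on the minus strand and Cdh12 at chr15:20449265-21589533 on the plus strand. The sources used here do not say whether reads were counted by strand, so the level of 9130024F11Rik, whose reads could be mixed with those of the opposite strand, is uncertain. The RefSeq windows (GRCm38.p6) from 250 bases before to 50 bases after the start are printed for Adamts2 and Clstn2, which set 1-P apart from the other layer types. Capitals mark AAAGTT, the letters of the MYT1L motif, on either strand (AAAGTT or AACTTT).
Adamts2, chr11:50601835-50602134, plus strand: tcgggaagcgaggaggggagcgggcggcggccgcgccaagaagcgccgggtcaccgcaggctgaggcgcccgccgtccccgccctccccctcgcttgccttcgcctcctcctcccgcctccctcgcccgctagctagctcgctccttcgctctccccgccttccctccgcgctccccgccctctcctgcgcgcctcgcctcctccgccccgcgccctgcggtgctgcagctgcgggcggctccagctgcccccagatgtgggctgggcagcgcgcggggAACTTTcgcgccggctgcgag
Clstn2, chr9:98033118-98033417, minus strand: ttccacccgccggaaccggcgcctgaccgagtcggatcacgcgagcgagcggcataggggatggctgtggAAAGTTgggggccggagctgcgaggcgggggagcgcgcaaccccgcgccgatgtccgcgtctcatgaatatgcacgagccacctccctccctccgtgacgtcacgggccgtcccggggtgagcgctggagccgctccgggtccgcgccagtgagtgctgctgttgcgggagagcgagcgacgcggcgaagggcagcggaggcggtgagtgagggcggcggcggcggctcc
Adamts2 and Clstn2 held 1 match each, while 14.1% of the 32851 windows in the table held one. Among genes of the 1-P comparison with a window, 14.0% of the genes higher in 1-P than in the other layer types and 12.7% of the lower genes held a match, against 11.2% of all genes compared. These are matches of letters and do not show binding.

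The layer genes went with the upper-layer name in part. That name had come from the expression of these same cells, so the levels describe 1-P and do not test it. Over the 3 libraries joined, Cux1, an upper-layer homeobox gene, had 534 CPM in 1-P, against 178 in 4-P, 207 in 12-P and 85.4 in 18-P. Pou3f2 (BRN2) had 430.5 CPM in 1-P, against 64.9, 167 and 34.0 CPM in the same order. Pou3f3 (BRN1) had 629 CPM in 1-P, against 184, 343 and 151 CPM. Lhx2, a LIM homeobox gene of cortical progenitors and young upper-layer neurons, had 138 CPM in 1-P, against 43.5, 24.2 and 23.8 CPM. These 4 regulators were all highest in 1-P among the layer types.
Several genes of the layer II-IV list stood the other way. Rorb, a nuclear receptor gene of layer IV, had 34.3 CPM in 1-P, against 169.8 in 4-P, 41.9 in 12-P and 107 in 18-P. Inhba, which encodes an activin subunit, had 8.72 CPM in 1-P, against 83.8 CPM in 4-P. Mef2c, a transcription factor gene of maturing neurons, had 479.6 CPM in 1-P, against 1614 CPM in 4-P. Cluster 4-P, which carries the same layer name, was thus the higher one for these genes. Of the 29 measured genes of the layer II-IV list, 16 were at least 1.5-fold higher and 6 at least 1.5-fold lower in 1-P than in the other layer types in 3 of 3 libraries, against 2.77% and 7.37% of all 8373 genes compared. The list includes the given markers Adamts2, 9130024F11Rik, Clstn2 and Cdh12 (mean log2 differences 3.89, 2.55, 1.82 and 0.71). The count of higher genes is therefore not independent of the markers given for 1-P. Rprm, with a mean log2 difference of -2.24, is a member of both this list and the layer V-VI list below.

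Genes of the deep layers were mostly low in 1-P. Of 24 measured genes of the layer V-VI list, 16 were at least 1.5-fold lower and 1 at least 1.5-fold higher in 3 of 3 libraries, against 7.37% and 2.77% of all genes. The median log2 difference of the list was -1.69, against 0.00 over all genes. Fezf2, the selector gene of subcerebral neurons, had 15.8 CPM in 1-P, against 47.4 in 4-P, 16.4 in 12-P and 163 in 18-P, so 1-P and 12-P were close. Bcl11b (CTIP2), which directs corticospinal axons, had 57.6 CPM in 1-P, against 119, 428 and 277 CPM in the same order. Tbr1, a gene of corticothalamic and newborn neurons, had 227 CPM in 1-P, against 77.9, 585 and 240.4 CPM, a mean log2 difference of -0.46 although 4-P was lower. The genes of the list that were higher in 3 of 3 libraries were Nfib, a nuclear factor I gene (1.09), Neurod6, a helix-loop-helix factor gene of projection neurons (0.70), and Wnt7b, a Wnt ligand gene (0.36), each as a mean log2 difference, and of these only Nfib was past the fold in every library.

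**Figure D2:**
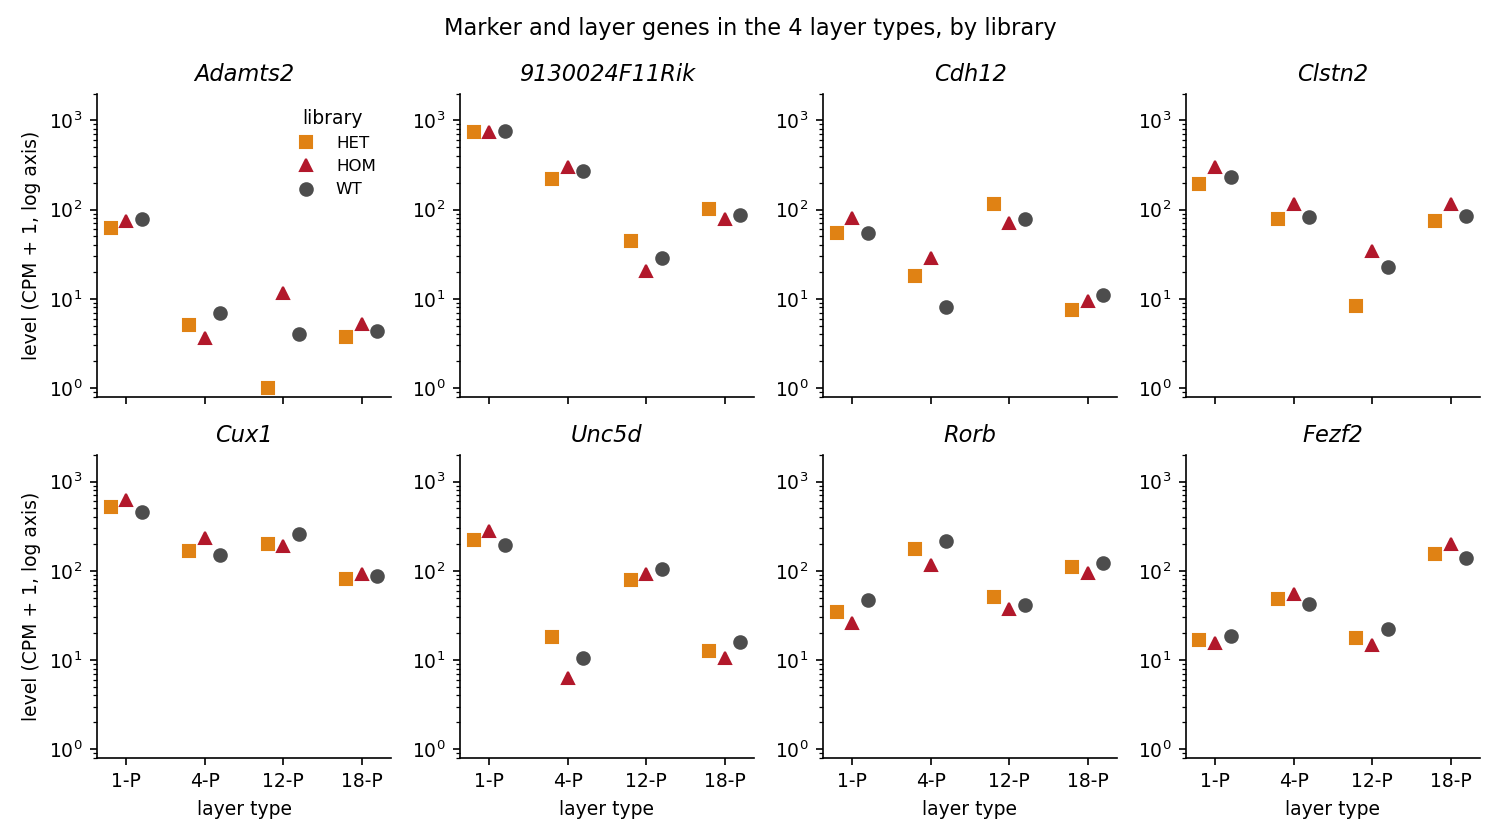
Levels of the 4 given markers (top) and of 4 layer genes (bottom) in CPM + 1 on a log axis, in the 4 layer types, with 1 point per library (HET, HOM and WT). Adamts2, 9130024F11Rik, Clstn2 and Cux1 were highest in 1-P in every library, Cdh12 was also high in 12-P, and Rorb and Fezf2 were low in 1-P.

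Across all genes, 1-P stood apart from the other layer types more often by lower than by higher levels. Within each library the level in 1-P was set against the mean level of 4-P, 12-P and 18-P, and 2.77% of 8373 genes were at least 1.5-fold higher in 3 of 3 libraries (232 genes) and 7.37% at least 1.5-fold lower (617 genes). In deeper cells the shares were 5.98% and 7.82% of 5037 genes. The types had been named from the expression of these same cells, mainly by mapping them onto reference data. These counts therefore describe 1-P and do not test it.

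The genes highest in 1-P were led by Palmd, which encodes the paralemmin-like protein palmdelphin. Palmd had 128 CPM in HET, 120.0 in HOM and 117 in WT cells of 1-P, against 5.48 to 27.7 CPM in the other layer types, a mean difference of 3.23 on the log2 scale. Gabra2, which encodes a GABA-A receptor subunit, had 132 CPM in HET, 149 in HOM and 166 in WT cells, and its mean log2 difference was 2.73. Unc5d, a netrin receptor gene of late-born migrating neurons, had 222 CPM in HET, 276 in HOM and 195 in WT cells, with a mean log2 difference of 2.57. All 3 genes were separated from every other layer type in every library. The same ranking held Fam210b, a mitochondrial membrane protein gene (2.76), Plekha5 (2.50), Pou3f2 (2.25), Hs6st2, a heparan sulphate sulphotransferase gene (2.12), Luzp2 (2.11), Tsc22d1 (1.99) and Ppfia2, which encodes the presynaptic scaffold liprin-alpha-2 (1.94), each as a mean log2 difference. Palmd, Unc5d and Pou3f2 were lower in 1-P than in migrating SVZ1 cells, which were not part of this comparison. Palmd had 149.7 CPM in SVZ1 cells over the joined libraries, above its level in 1-P in each library. Over the joined libraries Unc5d had 233 CPM in 1-P, against 562 in SVZ1 cells, and Pou3f2 had 430.5 CPM in 1-P, against 629.

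The genes lowest in 1-P were led by Thsd7a, a thrombospondin-domain gene, but for it the difference came from 12-P alone. Thsd7a had 27.1 CPM in HET, 19.8 in HOM and 21.5 in WT cells of 1-P, against 777, 1135 and 674 CPM in 12-P, and its mean log2 difference of -3.61 turned to 1.38 against 4-P alone and to 0.64 against 18-P alone. Nrcam, which encodes a neuronal adhesion molecule, had 20.6 CPM in HET, 17.8 in HOM and 30.2 in WT cells of 1-P, against 123 to 248 CPM in the other layer types. Nrcam was lowest in 1-P among the 19 types. Meg3, an imprinted noncoding RNA gene, had 186 CPM in HET, 118 in HOM and 142 in WT cells of 1-P, against 214 to 2137 CPM in the other layer types. Islr2, a membrane protein gene of growing axons, had a mean log2 difference of -2.44, but 0.14 against 4-P alone. The remaining lowest genes were Necab1 (-3.01), Hs3st4 (-2.93), Cnih3, which encodes an AMPA receptor auxiliary protein (-2.84), Pcsk2, a prohormone convertase gene (-2.83), Grm3, a metabotropic glutamate receptor gene (-2.66), Nfe2l3 (-2.52), Dner (-2.35) and Camkv (-2.30).

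**Figure D3:**
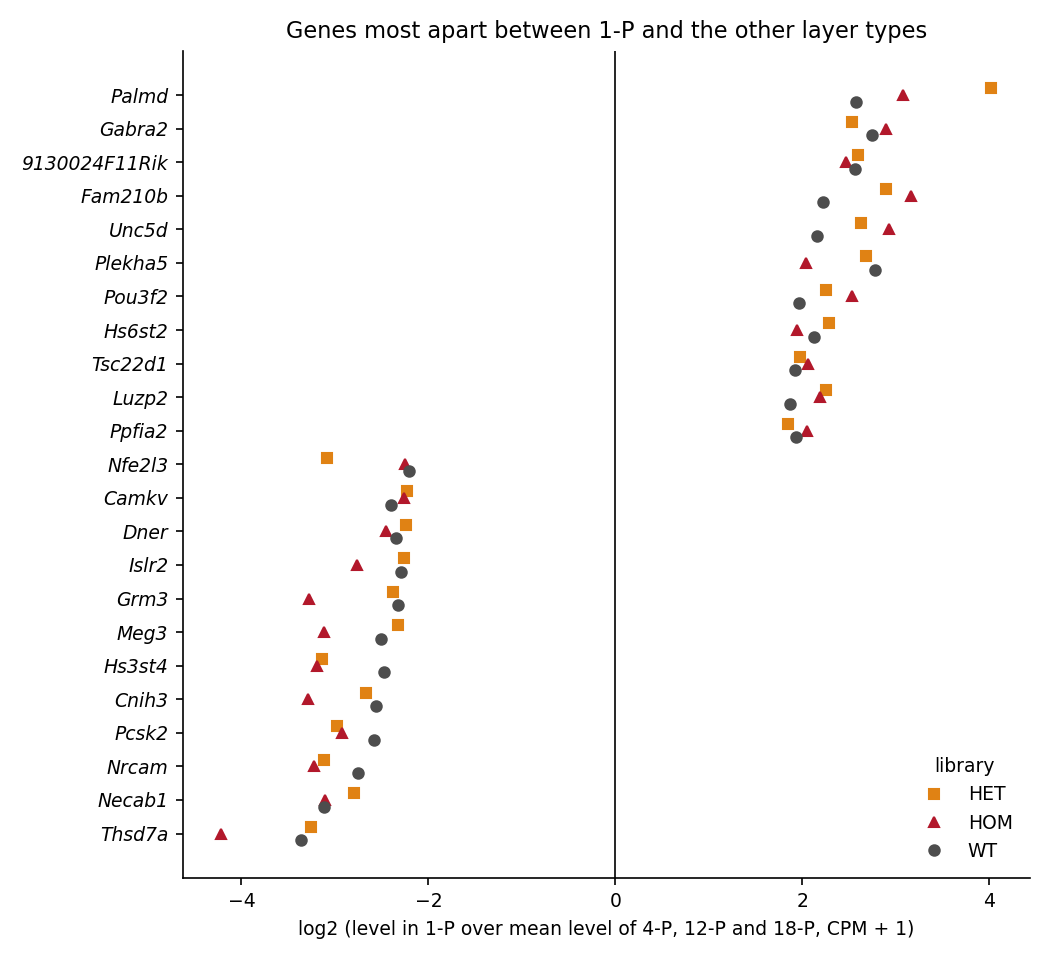
Genes ranked highest and lowest in 1-P against the other layer types, as the log2 ratio of the level in 1-P over the mean level of 4-P, 12-P and 18-P (CPM + 1), with 1 point per library. All genes drawn lie on one side of 0 in HET, HOM and WT alike, which the ranking required.

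Genes of synapses were low in 1-P. Of 36 measured synaptic vesicle and scaffold genes, none was higher and 33 were lower in 3 of 3 libraries, 15 of them at least 1.5-fold, with a median log2 difference of -0.65. Of all genes, 30.6% were higher and 31.8% lower in 3 of 3 libraries, and 7.37% were at least 1.5-fold lower and 2.77% at least 1.5-fold higher. Syt1, the calcium sensor of vesicle release, had 93.2 CPM in 1-P, against 369 in 4-P, 189.6 in 12-P and 480.1 in 18-P. Of 22 glutamate and GABA receptor genes, 11 were at least 1.5-fold lower and 2 higher (median -0.99), Gabra2 being one of the higher genes. Of 24 voltage-gated ion channel genes, 6 were at least 1.5-fold lower and 0 higher (median -0.45).

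Guidance and adhesion genes were divided. Of 39 axon guidance genes, 14 were at least 1.5-fold lower and 4 higher in 1-P in 3 of 3 libraries (median -0.54), against 7.37% and 2.77% of all genes. Nrp1, a semaphorin receptor gene of callosal axons, had 115 CPM in 1-P, against 35.7 in 4-P, 18.3 in 12-P and 39.6 in 18-P. Nrp2, its paralogue, had 6.16 CPM in 1-P, against 8.44, 239 and 23.4 CPM in the same order. Robo2, a slit receptor gene, had 546 CPM in 1-P, against 91.6, 230.2 and 177 CPM. The paired receptors Nrp1 and Nrp2 thus lay on opposite sides. Dab1, the adaptor of reelin signalling in migrating neurons, had 636 CPM in 1-P, against 272, 315 and 252 CPM, the highest level among the 19 types.

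Genes of young neurons showed no single direction. Igfbpl1, a gene of newborn neurons, had 1784 CPM in 1-P, against 160.1 in 4-P, 1888 in 12-P and 444 in 18-P. Gap43, a growth cone protein gene, had 412 CPM in 1-P, against 1771 in 4-P, 525 in 12-P and 1359 in 18-P. Eomes (TBR2), which marks intermediate progenitors, was near 0 in 1-P with 3.46 CPM, against 158 CPM in SVZ1 cells. Of 42 chromatin regulator and autism risk genes, 20 were higher and 4 lower in 3 of 3 libraries (median 0.19), against 30.6% and 31.8% of all genes, and 3 were at least 1.5-fold higher and 1 at least 1.5-fold lower.

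Cells of 1-P were not uniform, and the groups among them differed in depth and in how surely the cells were assigned to 1-P. In the unsupervised (Leiden) clusters of the cell table, 44.9% of 1-P cells lay in cluster 2 (2536 cells, median 5014.5 molecules), 33.7% in cluster 4 (1902 cells, 772.5 molecules) and 9.88% in cluster 1 (558 cells, 620 molecules). Of all cells in these clusters, 75.0, 71.6 and 15.7% were named 1-P in the same order. The median type probability of their 1-P cells was 0.999997, 0.9999 and 0.920. Adamts2 had 129.6 CPM in cluster 2, 16.7 in cluster 4 and 5.41 in cluster 1, and Clstn2 had 418, 81.1 and 34.3 CPM in the same order. Gap43 ran the other way with 283, 440.3 and 789 CPM. Markers of other cells did likewise: Apoe, an astrocyte and microglia gene, had 41.2, 174 and 253 CPM, and Hbb-bs, a haemoglobin gene, had 187, 632 and 1153 CPM. The given markers were thus lower in the shallower cells while genes of other cells were higher. The parts of depth, type assignment and RNA from outside the cell were not tested.

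Cluster 1-P took a smaller share of the cells in both mutant libraries. It made up 14.1% of HET cells (13.4 to 14.7%), 15.1% of HOM cells (14.5 to 15.7%) and 17.9% of WT cells (17.2 to 18.7%), a log2 ratio to WT of -0.35 for HET and -0.25 for HOM. Among cells with at least 2000 molecules the shares were 17.2% in HET, 17.8% in HOM and 18.8% in WT, with overlapping intervals. Among the 4 layer types together, 1-P took 33.1% in HET, 43.8% in HOM and 43.9% in WT. The order turned round among cells in which Y-linked RNA was found, with 13.1% in HET (11.6 to 14.8%), 14.2% in HOM (12.7 to 15.8%) and 12.6% in WT (10.1 to 15.5%). These intervals overlapped, and the WT share rested on 76 cells of 1-P. Neither lower share therefore held in every set of cells, and with 1 library each the spread between pools of mice is unknown.

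Myt1l itself lies at chr12:29528384-29923213 on the plus strand and was highest in 1-P among the 19 types over the joined libraries (1032 CPM). In HOM alone SVZ1 cells were higher, with 1455 CPM. The level of Myt1l in 1-P was 889 CPM in HET, 1406 in HOM and 737 in WT cells, a log2 ratio to WT of 0.27 in HET and 0.93 in HOM. In deeper cells the levels were 1217, 1854 and 1087 CPM in the same order. The other layer types had the same order of libraries, with 591, 987 and 417 CPM in 4-P. Among the 19 types only ganglionic eminence and Int4 cells did not have this order. The deletion leaves the transcript in place, so these levels do not check the genotype labels.

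**Figure D4:**
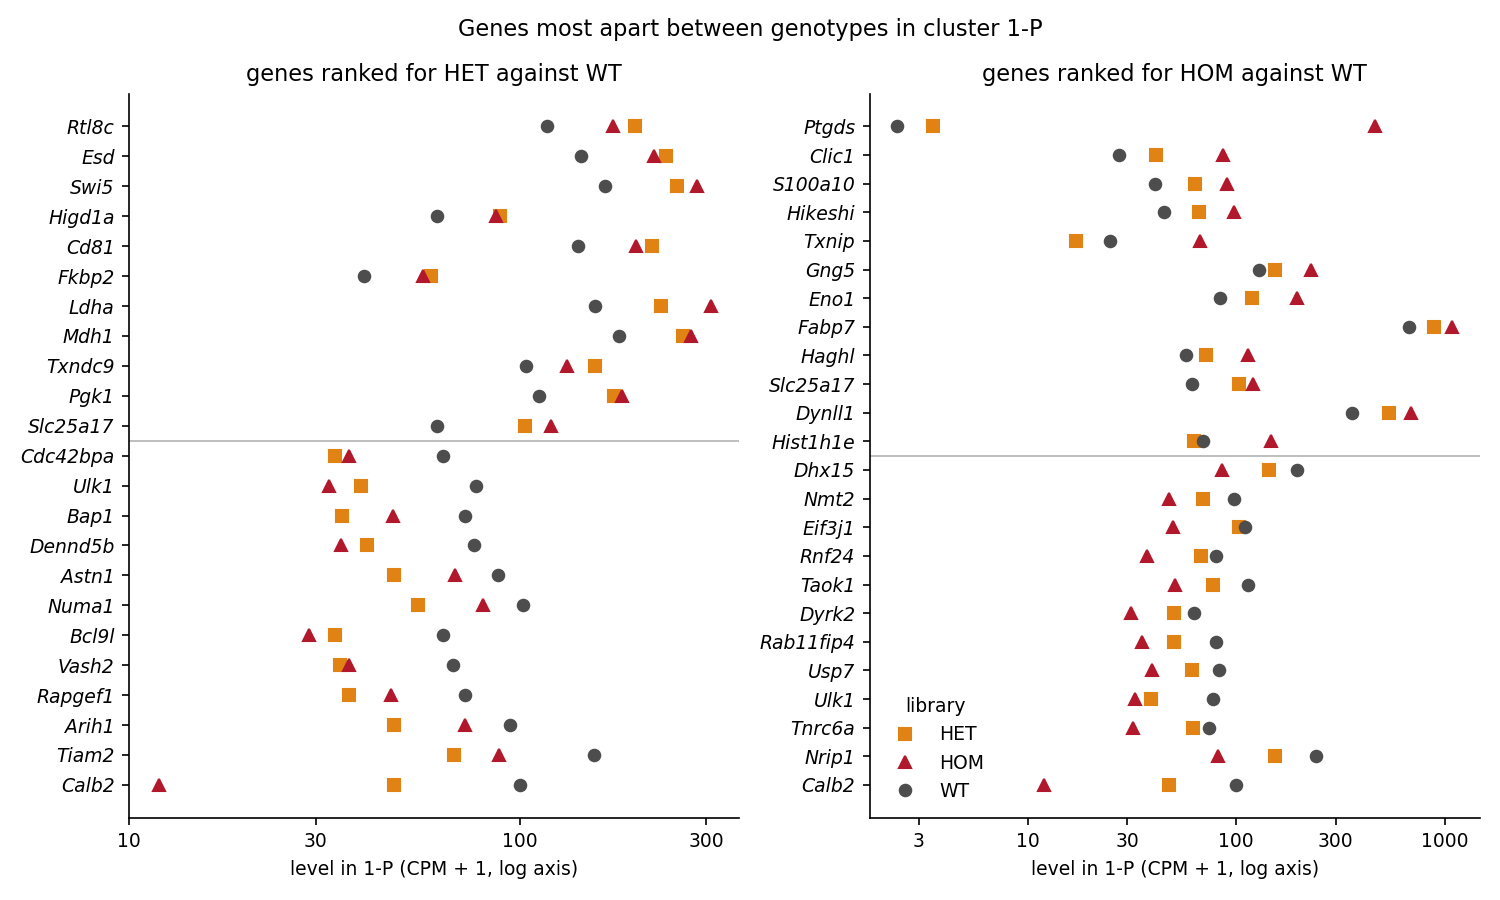
Levels in 1-P (CPM + 1, log axis) of genes ranked highest (above the line) and lowest (below it) for HET against WT (left) and HOM against WT (right), with 1 point per library. Ptgds and Calb2 lie farthest apart, at 462 and 10.9 CPM in HOM against 1.37 and 99.2 CPM in WT.

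In HET against WT, lower levels in 1-P outnumbered higher ones. Of 7911 genes compared, 1.61% were at least 1.5-fold higher in HET (127 genes) and 9.44% at least 1.5-fold lower (747 genes). The median of all genes was itself at -0.09 on the log2 scale, and with TMM scaling the counts were 262 higher and 505 lower. Of all genes, 39.6% were above 0. In deeper cells 2.51% of 5538 genes were higher and 12% lower, with 39.9% above 0. In HET cells with a Y-linked transcript, set against the 76 such WT cells, 182 of 1609 genes were higher and 128 lower. These genes were not a sample of all genes, since the same 1609 had 11 higher and 16 lower in all 1-P cells, with a median of 0.06.

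The HET genes ranked highest were small in effect. Rtl8c, a retrotransposon-derived gene, had 196 CPM in HET, 172 in HOM and 117 in WT cells (log2 ratio 0.74 for HET). Esd, which encodes esterase D, had 235, 219 and 143 CPM in the same order (0.72). Pgk1, a glycolytic enzyme gene, had 173, 181 and 111 CPM (0.64). Rtl8c and Pgk1 lie on the X chromosome, and the sexes of the libraries differed. Mdh1, a malate dehydrogenase gene (0.54), Ldha, a lactate dehydrogenase gene (0.56), Cd81 (0.63), Swi5 (0.62), Slc25a17 (0.75), Txndc9 (0.58), Fkbp2 (0.57) and Higd1a (0.53) were also in the ranking, and several of these log2 ratios are below the 1.5-fold mark. None of these genes had a HOM level below its WT level.

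The HET genes ranked lowest were led by Calb2, described with the HOM values below, and Tiam2, the order being that of the ratio nearer to 0 among cells below and above the median depth. Tiam2, which encodes an activator of the GTPase RAC1, had 66.8 CPM in HET, 87.3 in HOM and 154 in WT cells (log2 ratio -1.19 for HET). Astn1, which encodes an adhesion protein of neurons migrating along glia, had 46.7, 67.1 and 86.8 CPM (-0.88). Bap1, a nuclear deubiquitinase gene, had 34.1, 46.5 and 71.3 CPM (-1.04). Ulk1, a kinase gene that starts autophagy, had 38.1, 31.5 and 76.3 CPM (-0.98). These 4 genes were lower than WT in both mutant libraries. The others were Arih1 (-0.98), Rapgef1 (-0.98), Vash2 (-0.96), Bcl9l (-0.92), Cdc42bpa (-0.92), Dennd5b (-0.91) and Numa1 (-0.89), each as the log2 ratio of HET to WT.

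In HOM against WT more genes were past the fold. Of 8197 genes, 3.83% were at least 1.5-fold higher in HOM (314 genes) and 14.3% at least 1.5-fold lower (1169 genes), while the median of all genes was -0.13. The balance depended on the scaling: TMM gave 572 higher and 741 lower, and median-of-ratios scaling gave 732 higher and 594 lower. Of all genes, 38.2% were above 0. In deeper cells 5.83% of 6104 genes were higher and 16.8% lower. In Y-linked cells 232 of 1866 genes were higher and 165 lower, and the same 1866 genes had 65 higher and 63 lower in all 1-P cells, with a median of 0.07. Set against HET, HOM had 3.49% of 7908 genes higher (276 genes) and 4.03% lower (319 genes).

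Calb2, which encodes the calcium-binding protein calretinin, came first among the lower genes in both rankings, while in HET its ratio over all cells was nearer to 0 than that of Tiam2. It had 46.7 CPM in HET, 10.9 in HOM and 99.2 in WT cells of 1-P, from summed values of 93, 27 and 217, and log2 ratios to WT of -1.07 for HET and -3.07 for HOM. In deeper cells it had 59.0 CPM in HET, 2.18 in HOM and 127 in WT. The low HOM level was not particular to 1-P, but it was not found in every type. Calb2 had 236 CPM in HET, 19.7 in HOM and 169 in WT cells of SVZ1, 25.7, 19.7 and 86.1 CPM in 12-P, and 137, 30.8 and 73.3 CPM in the interneuron cluster Int4. In 18-P it had 13.1, 11.9 and 24.1 CPM, and in 4-P 10.1, 13.2 and 11.9 CPM, all low. HOM was above HET in layer I cells (205, 347 and 497 CPM) and highest in Int3 (42.4, 75.2 and 51.8 CPM). In Int1 (54.8, 36.4 and 18.6 CPM) HOM was above WT. Calb2 belongs to the Cajal-Retzius list, whose summed level in 1-P was 65.3 CPM in HET, 58.6 in HOM and 119.8 in WT, with no member at 0, against 5182 CPM in layer I cells. Calb2 made up most of the WT sum, and the other 9 genes summed to 18.6 CPM in HET, 47.7 in HOM and 20.6 in WT, so HOM was highest without it. Reln, the list's other measured gene, had 12.05, 31.9 and 14.6 CPM (log2 ratio 1.07 for HOM). How far cells of other types contribute to Calb2 in 1-P was not tested.

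Nrip1, a nuclear receptor corepressor gene, was next. It had 153 CPM in HET, 80.8 in HOM and 240.0 in WT cells of 1-P, a log2 ratio of -1.56 for HOM. The same HOM ratio was -1.69 in 4-P, -1.61 in 12-P and -1.33 in 18-P, so the lower level was not particular to 1-P. Dhx15, a splicing helicase gene, had 143, 84.8 and 195 CPM (-1.19 for HOM). Eif3j1, a translation initiation factor gene, had 102, 48.5 and 109 CPM (-1.16). In 4-P, 12-P and 18-P the HOM ratios were -1.49, -1.38 and -1.05 for Dhx15 and -1.53, -1.21 and -0.89 for Eif3j1. Their lower levels were thus not particular to 1-P either. For Eif3j1 the HET level was close to WT, whereas for Nrip1 and Dhx15 it lay between HOM and WT. The ranking also held Ulk1 (-1.25), Tnrc6a, a microRNA silencing factor gene (-1.21), Rab11fip4 (-1.17), Taok1 (-1.15), Rnf24 (-1.09), Usp7 (-1.07), Nmt2 (-1.04), each as the log2 ratio of HOM to WT, and Dyrk2, a kinase gene with 49.2 CPM in HET, 30.3 in HOM and 61.7 in WT.

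Ptgds, which encodes prostaglandin D synthase and is made mainly by meningeal cells, was the highest gene in HOM. It had 2.51 CPM in HET, 462 in HOM and 1.37 in WT cells of 1-P, and 58.3 CPM in deeper HOM cells. The high HOM level was not particular to 1-P, since HOM was above HET and WT in all 19 types. Ptgds had 229 CPM in HOM cells of 4-P, 88.7 in 18-P and 307 in microglia. In the type named Endothelial2 it had 34.5 CPM in HET, 18024 in HOM and 0 in WT cells. The summed level of the meningeal fibroblast list was 21.1 CPM in HET, 506 in HOM and 11.4 in WT, with Lum at 0. Ptgds made up most of that sum, and the part of meningeal RNA in it was not tested.

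Fabp7, a fatty acid-binding protein gene of radial glia and astrocytes, had 885 CPM in HET, 1084 in HOM and 674 in WT cells of 1-P. In deeper cells it had 222, 369 and 116 CPM (log2 ratio 1.66 for HOM). The summed level of the astrocyte list in deeper cells was 374 CPM in HET, 586 in HOM and 255 in WT, with no member at 0 in 1-P, and the part of astrocyte RNA was not tested. Clic1, a chloride channel family gene, had 40.2 CPM in HET, 85.2 in HOM and 26.5 in WT (1.65 for HOM). Eno1, a glycolytic enzyme gene, had 118, 194 and 82.7 CPM (1.22). Hist1h1e, a linker histone gene, had 61.7, 145 and 68.6 CPM (1.07), so only HOM was high. The HOM ratio of Hist1h1e was 0.75 in 4-P, 1.41 in 12-P and 0.89 in 18-P. Dynll1, a dynein light chain gene, had 537, 687 and 359 CPM (0.93). The others were Txnip (1.43), S100a10 (1.15), Hikeshi (1.12), Haghl (0.99), Slc25a17 (0.97) and Gng5 (0.83), each as the log2 ratio of HOM to WT.

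Genes of glycolysis and hypoxia were the list with the highest median in HOM among those plotted. In HOM, 19 of 23 measured genes were higher than in WT and 10 of them at least 1.5-fold (median 0.56, against -0.13 for all genes, of which 38.2% were higher and 3.83% past the fold). In HET, 15 of 21 were higher and 1 past the fold (median 0.23, against -0.09 for all genes, of which 39.6% were higher and 1.61% past the fold). Tpi1 had 163 CPM in HET, 238 in HOM and 117 in WT cells. Pkm, the pyruvate kinase gene, had 414, 613 and 320.0 CPM. In deeper cells the HOM median was 0.75. The median stayed above 0 in every setting run, Y-linked cells included (0.29 in HET and 0.53 in HOM).

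Genes of the respiratory chain were split by genome. Of 45 nuclear-encoded genes, 42 were higher in HET and 42 in HOM, none past the fold, with medians of 0.16 and 0.24. Of all genes, 39.6% were higher in HET and 38.2% in HOM, with 1.61% and 3.83% past the fold and medians of -0.09 and -0.13. In deeper cells 7 of the nuclear-encoded genes in HET and 5 in HOM were at least 1.5-fold higher, and 1 in HOM lower. The shares of all genes higher there were 2.51% and 5.83%. Of 13 mitochondrially encoded genes, 13 were lower in HOM and 5 past the fold (median -0.50), against 61.8% and 14.3% of all genes. The HET median of these genes was -0.01 and turned to 0.09 with TMM scaling and 0.16 in deeper cells. The mitochondrial share per cell given above was also lowest in HOM.

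Medians of the cytoskeletal and young-neuron lists were above 0, but few of their genes were past the fold. Of all genes, 39.6% were higher in HET and 38.2% in HOM, with 1.61% and 3.83% past the fold and medians of -0.09 and -0.13. Of 15 tubulin, actin and thymosin genes, 15 were higher in HET and 14 in HOM, with a median of 0.26 in both, and 0 in HET and 2 in HOM were past the fold. Tubb3, the neuronal beta-tubulin gene, had 3173 CPM in HET, 3726 in HOM and 2476 in WT cells. Of 20 newborn and immature neuron genes, 12 were higher in HET with 0 past the fold (median 0.14), and 14 were higher in HOM with 4 past the fold and 1 past it in the lower direction (median 0.27). Stmn2, a microtubule regulator gene, had 2423, 2728 and 1730 CPM. Basp1, a membrane protein gene of growth cones, stood the other way with 507, 386 and 580.5 CPM.

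**Figure D5:**
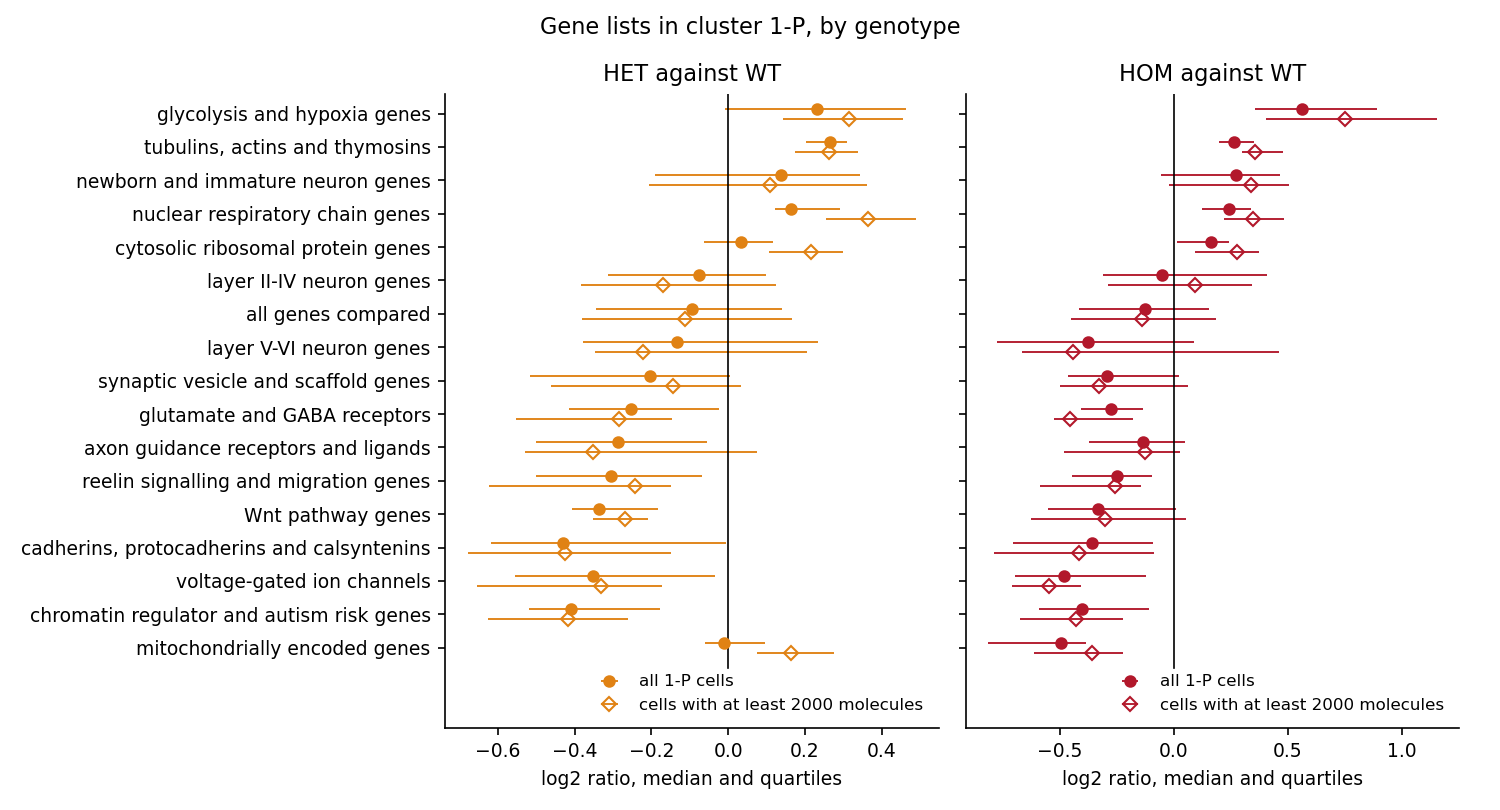
Median and quartiles of the log2 ratio over the measured genes of each list in 1-P, for HET against WT (left) and HOM against WT (right), in all 1-P cells (filled) and in cells with at least 2000 molecules (open). The glycolysis list has the highest HOM median (0.56 in all cells), while the chromatin regulator list is at -0.41 in HET and -0.40 in HOM, against -0.09 and -0.13 for all genes compared.

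Chromatin regulator and autism risk genes lay mostly below WT in both mutants. Of 42 genes, 40 were lower in HET and 7 past the fold (median -0.41), and 35 were lower in HOM and 12 past the fold (median -0.40). Of all genes, 60.4% were lower in HET and 61.8% in HOM, with 9.44% and 14.3% past the fold in that direction. Kdm6b, a histone H3 demethylase gene, had 38.2 CPM in HET, 40.8 in HOM and 75.0 in WT cells. Kmt2a, a histone methyltransferase gene, had 90.8, 57.8 and 103 CPM. Setd2, another such gene, had 72.3, 61.0 and 104 CPM. In Y-linked cells only 16 of the genes could be compared in HET and 20 in HOM, with medians of -0.05 and -0.12, and the same genes had medians of -0.19 and -0.24 in all 1-P cells. The nearer values in Y-linked cells thus went with fewer genes as well as with other cells.

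Adhesion, channel and synaptic lists also had medians below those of all genes (-0.09 in HET and -0.13 in HOM), and their counts of lower genes are to be read against the 60.4% and 61.8% of all genes that were lower. Of all genes, 9.44% in HET and 14.3% in HOM were past the fold in that direction. Of 21 cadherin, protocadherin and calsyntenin genes, 16 were lower in HET (median -0.43) and 18 in HOM (median -0.36), with 6 and 8 past the fold. In Y-linked cells the HET median was 0.32, over 5 genes alone, and the same 5 had a median of 0.03 in all 1-P cells. Celsr2, an atypical cadherin gene, had 44.7 CPM in HET, 46.5 in HOM and 85.5 in WT cells. Of 22 voltage-gated ion channel genes, 18 were lower in HET (median -0.35) and 19 in HOM (median -0.48), with 5 and 8 past the fold. Kcnip4, which encodes a potassium channel-interacting protein, had 7.53, 4.44 and 20.6 CPM. Of the synaptic genes, 23 of 32 were lower in HET (median -0.20) and 24 of 33 in HOM (median -0.29), with 8 and 7 past the fold in that direction. The HOM median in Y-linked cells was 0.07 over 7 genes, which had -0.19 in all 1-P cells. Of the glutamate and GABA receptor genes, 14 of 17 were lower in HET (median -0.25) and 13 of 15 in HOM (median -0.28), with 1 and 2 past the fold.

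Guidance, migration and Wnt genes had medians below 0 as well, as had all genes compared (-0.09 in HET and -0.13 in HOM). Of all genes, 60.4% were lower in HET and 61.8% in HOM, with 9.44% and 14.3% past the fold in that direction. Of the axon guidance genes, 27 of 36 were lower in HET (median -0.29) and 25 of 37 in HOM (median -0.14), with 7 and 3 past the fold in that direction, the HOM median turning to 0.04 with median-of-ratios scaling. In HOM this list was near all genes in its median and share lower, with a smaller share past the fold (8.11%). Dcc, the netrin receptor gene of commissural axons, had 59.2 CPM in HET, 36.0 in HOM and 76.3 in WT cells. Draxin, which encodes a secreted netrin antagonist, had 15.6, 32.3 and 32.5 CPM, so only HET was low. Of the reelin and migration genes, 16 of 20 were lower in HET (median -0.30) and 18 of 19 in HOM (median -0.25), with 3 and 4 past the fold. In Y-linked cells only 9 of these genes in HET and 10 in HOM could be compared, with medians of 0.10 and 0.11, and the same genes had -0.25 and -0.11 in all 1-P cells. Of the Wnt pathway genes, 14 of 17 were lower in HET (median -0.34, and 0.01 over 7 genes in Y-linked cells, which had -0.18 in all 1-P cells) and 13 of 18 in HOM (median -0.33).

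The layer genes of 1-P itself stayed near the median of all genes (-0.09 in HET and -0.13 in HOM). Of all genes, 60.4% were lower in HET and 61.8% in HOM. Of 28 layer II-IV genes, 19 were lower in HET (median -0.07) and 16 in HOM (median -0.05), and both medians were above 0 with TMM scaling (0.02 and 0.07) and the HOM median in deeper cells (0.09). Mef2c had 513 CPM in HET, 316 in HOM and 634 in WT cells. Cux1 had 518, 619 and 453 CPM. Of 20 layer V-VI genes, 15 were lower in HOM and 8 past the fold in that direction (median -0.38), against 61.8% and 14.3% of all genes. In HET 11 of 19 were lower (median -0.13), against 60.4% of all genes. Etv1, a transcription factor gene of layer V, had 62.2, 17.0 and 48.0 CPM, so HET was high and HOM low.

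The genes past the fold differed in length. In HOM the higher genes had a median longest transcript of 2231 bases and the lower genes 4791 bases, against 3521 bases for all genes compared. In HET the values were 2364, 4595 and 3530.5 bases. The part of RNA length in the fold changes was not tested. The ribosomal RNA-like genes summed to 14425 CPM in HET, 14135 in HOM and 29071 in WT. The letters AAAGTT were found in the windows of 13.7% of the genes higher in HOM and 9.99% of the lower genes, against 11.1% of all genes compared, and in 9.80% and 8.66% of those in HET, against 10.9%.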

How the data were processed

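Single-cell RNA sequencing of prefrontal cortex was taken from 3 libraries, 1 per genotype, each sequenced in 4 runs, which gave 12 samples. The authors' processing notes name Cell Ranger 4.0.0, Seurat 4.0 and the build mm10. The deposited gene matrix holds depth-corrected values per gene and cell, treated as a score and not as raw reads, so no count model was used. The deposited cell table gives each cell's count of molecules and genes, its mitochondrial percent, its type and the type probability as a fraction. The authors' tables of log2 fold changes and p-values were not used. Depth is the molecules per cell in the cell table (87057404 in all, 15708985 in 1-P).

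Values were summed per library and type, scaled to 1000000 and compared as log2 ratios with a pseudocount of 1 CPM (minimum sum 50). No test was made, because each genotype was 1 library and cells are not replicates. The genes named were Myt1l, the markers, layer and other cell type genes, up to 5 members of each list with the largest ratio, and the 12 genes at either end of each comparison (minimum sum 200) that had the same sign in cells below and above the median of 1375 molecules, or in all 3 libraries. Sex-linked genes used to tell the sexes, haemoglobin genes, mitochondrially encoded genes and genes of ribosomal RNA type were not ranked. Some ranked genes are not reported here. Levels of other genes were named after their values were seen. The members and lists were chosen with earlier results of these data known. The procedure was tested on simulated data with 200 genes changed 2-fold: 97.5% passed the fold in HET (7922 genes) and 99.5% in HOM (8213 genes), as did 3.07% and 2.46% of unchanged genes, both directions counted. In the data 1.61% of genes were past the fold higher and 9.44% lower in HET. The changed genes were drawn above a higher minimum sum than 50 and the noise was counting noise alone. The rates therefore do not cover the weakest genes compared or the spread between mice. Alternatives covered depth, scaling, filters, pseudocount and sex. Restricting a list to the genes compared in Y-linked cells was chosen after seeing the data. Doublets were treated as in the cell table. Python 3.11.15, numpy 2.4.6, scipy 1.17.1, pandas 2.3.3 and matplotlib 3.10.9 were used.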

Additional observations from a re-analysis of the deposited data

How the results depend on the processing

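No paired analysis was possible because the samples of a genotype are runs of 1 library and cells are not linked to animals, and no replicate could be left out. Log2 ratios of the share of 1-P to WT were -0.24 in HET and -0.13 in HOM with at least 1000 molecules per cell, -0.13 in HET and -0.0741 in HOM with at least 2000, and turned to 0.0598 in HET and 0.171 in HOM in cells with a Y-linked transcript. As a share of the 4 layer types the HOM value was -0.0013. Genes past the fold numbered 874 in HET and 1483 in HOM. They numbered 1560 and 2259 with a minimum sum of 20, 164 and 430 with 200, 342 and 703 with a pseudocount of 10 CPM, and 310 and 397 in Y-linked cells, where fewer genes could be compared. For 1-P against the other layer types, 849 genes became 1443 against 18-P alone, 394 with a minimum sum of 200 and 459 in cells below 2000 molecules. The last setting was chosen after seeing the data, as was weighting both depth classes equally. Thsd7a turned to 1.38 against 4-P alone and 0.64 against 18-P alone, and Islr2 to 0.14 against 4-P alone. Of the single-gene values under the alternatives, 790 were classed as unchanged, 88 as moved and 3 as turned round. The main results held less often, with 27 values classed as unchanged, 16 as moved and 2 as turned round. The limit between unchanged and moved is not given here, so those counts are rough. Except where stated, the cause was not tested. The depth per cell limits shares of cells with a value above 0, and the number of mice limits every comparison of genotypes.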
